A study of Arabidopsis thaliana with 9 samples.

Results

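The type-A *ARR* genes of *Arabidopsis thaliana* encode the small response regulators of the cytokinin pathway. The 10 members described here, *ARR3* to *ARR9*, *ARR15*, *ARR16* and *ARR17*, were chosen by locus identifier among the 33602 genes of the deposited count tables, by a rule that uses no measured value, although earlier results of these data were known when the set was proposed. Their introns (41 of 120717 listed) and their bins of annotated alternative splicing (1 of 7973) were followed with them. The genes were measured by RNA-seq of poly(A) RNA from whole plants of 3 genotypes, all in the Columbia ecotype, with 3 libraries each and 9 in all. The first was *prmt5*, which carries the *prmt5-5* allele in the gene of the type II arginine methyltransferase PRMT5. The second was *prmt4a;4b*, a cross that combines a T-DNA insertion in *PRMT4A* with one in *PRMT4B*, both genes encoding type I methyltransferases. The last was wild type (WT Col). All plants came from seed stratified for 4 days and were grown at 22 °C in continuous light, without added hormone. The labels give a harvest at 15 days while the methods of the study give another age, the same for every library. Each mutant was compared with the same 3 WT libraries, so the comparisons with WT are not independent of each other, and each mutant was represented by a single allele or allele pair.

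Cytokinin is sensed by histidine kinases of the AHK family, and the signal passes as a phosphate through AHP phosphotransfer proteins to the type-B ARRs, which are transcription factors. Type-B ARRs switch on the type-A genes within minutes of cytokinin treatment. The type-A proteins have a receiver domain but no DNA-binding domain, and they dampen the same pathway, which makes it a negative feedback loop. For this reason transcripts such as those of *ARR5* and *ARR6* are widely used as a readout of cytokinin response. The family forms close pairs by sequence: *ARR3* and *ARR4*, *ARR5* and *ARR6*, *ARR7* and *ARR15*, *ARR8* and *ARR9*, and *ARR16* and *ARR17*.

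Gene reads per library ranged between 25029646 and 39904677. Plastid-encoded transcripts took 0.604 to 2.10% of the gene reads in *prmt5*, 0.869 to 3.94% in *prmt4a;4b* and 0.323 to 0.58% in WT, and *prmt5* replicate 1 and *prmt4a;4b* replicate 3 had the highest shares of their genotypes. *PRMT4A* and *PRMT4B* reads were 7.14-fold and 15.6-fold lower in *prmt4a;4b* than in WT. *PRMT4A* was also 1.58-fold lower in *prmt5* than in WT, with all *prmt5* libraries below WT, while those of *PRMT4B* overlapped. *PRMT5* averaged 874 ± 125 normalised reads in *prmt5* and 703 ± 24.7 in WT (SD, n = 3 each), so the level of this transcript did not check the label of the *prmt5* libraries. Reads are given here as normalised reads, that is, scaled by the trimmed mean of M-values (TMM) to the average library. In whole plants, fewer cells of a type and less RNA per cell cannot be told apart. The source of the replicates is stated only as 3 per genotype, so p-values measure the spread between these libraries, which may be partly technical.

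The pair that rose in both mutants, *ARR5* and *ARR6*, and the pair that set the mutants apart, *ARR8* and *ARR9*, are shown by their promoters, taken as the 250 bases before the RefSeq gene start (TAIR10.1 assembly, whose chromosomes carry the TAIR10 coordinates of the files). Type-B ARRs bind short sites, which were searched as AGATT, then as AGATC, then as GGATT and then as GGATC, and in the longer forms AAGATCTT and AAGATTTT, on both strands. The longer forms contain a shorter one, so their matches overlap. Matches are in capitals, and a match on the other strand appears as its reverse complement.
ARR5 promoter, chr3:17760951-17761200, minus strand: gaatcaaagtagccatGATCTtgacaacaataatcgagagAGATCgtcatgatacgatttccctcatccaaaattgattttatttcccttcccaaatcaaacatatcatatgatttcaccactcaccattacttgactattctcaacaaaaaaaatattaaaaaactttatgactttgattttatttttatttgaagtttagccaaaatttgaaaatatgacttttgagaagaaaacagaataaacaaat
ARR6 promoter, chr5:25254319-25254568, minus strand: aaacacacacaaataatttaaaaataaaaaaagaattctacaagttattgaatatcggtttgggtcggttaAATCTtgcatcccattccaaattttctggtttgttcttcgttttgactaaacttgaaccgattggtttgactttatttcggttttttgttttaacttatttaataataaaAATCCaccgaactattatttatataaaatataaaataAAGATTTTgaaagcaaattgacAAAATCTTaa
ARR8 promoter, chr2:17221590-17221839, plus strand: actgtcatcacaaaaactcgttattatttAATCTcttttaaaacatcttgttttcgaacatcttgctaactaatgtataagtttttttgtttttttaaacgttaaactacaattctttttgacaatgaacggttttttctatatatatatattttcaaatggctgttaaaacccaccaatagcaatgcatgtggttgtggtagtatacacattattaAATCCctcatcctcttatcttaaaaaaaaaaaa
ARR9 promoter, chr3:21108809-21109058, plus strand: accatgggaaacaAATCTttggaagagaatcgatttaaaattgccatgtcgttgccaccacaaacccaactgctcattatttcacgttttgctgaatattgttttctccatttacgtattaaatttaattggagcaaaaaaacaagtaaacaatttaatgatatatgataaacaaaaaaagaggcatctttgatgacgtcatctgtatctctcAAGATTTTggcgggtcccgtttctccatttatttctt

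Of the 10 members, 7 had AGATT in this window, 5 had AGATC, 6 had GGATT and 2 had GGATC, while 63.6%, 26.4%, 37.9% and 18.1% of 26707 promoters of protein-coding genes held these letters. The longer AAGATTTT was found in 4 members (*ARR6*, *ARR7*, *ARR9* and *ARR16*) and in 5.99% of all promoters, and AAGATCTT only in *ARR7* among the members and in 0.820% of all promoters. The promoter of *ARR6* held AAGATTTT at 2 places, that of *ARR9* at 1, and those of *ARR5* and *ARR8* at none. Letter by letter, *ARR5* and *ARR6* shared none of these spellings, since *ARR5* had 2 copies of AGATC and *ARR6* had AGATT and GGATT. With the shorter spellings counted together, both promoters had matches, 2 in *ARR5* and 4 in *ARR6*. At least 2 such matches were found in 60.1% of all promoters, and at least 4 in 18.7%. A match describes letters and not a bound site.

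Per length of transcript, *ARR4* was the highest member in every genotype, with 13.9 ± 2.07 RPKM (reads per kilobase of exon, scaled to sequencing depth) in *prmt5*, 15.0 ± 3.51 in *prmt4a;4b* and 18.6 ± 1.35 in WT (SD, n = 3 each). In WT the mean RPKM then ran *ARR8* (8.05), *ARR7* (6.36), *ARR9* (4.95), *ARR6* (1.44), *ARR5* (0.990) and *ARR3* (0.825). The libraries of *ARR8* and *ARR7* overlapped there, as did those of *ARR6* and *ARR5* and of *ARR5* and *ARR3*. *ARR16*, *ARR15* and *ARR17* came last, at 0.238, 0.166 and 0.0222 RPKM in WT. The order changed in the mutants. *ARR9* stood second in both, at 4.82 RPKM in *prmt5* and 8.31 RPKM in *prmt4a;4b*, and in *prmt5* the libraries of *ARR9* and *ARR7*, of *ARR7* and *ARR8*, of *ARR8* and *ARR6*, and of *ARR6* and *ARR5* all overlapped.

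**Figure D1:**
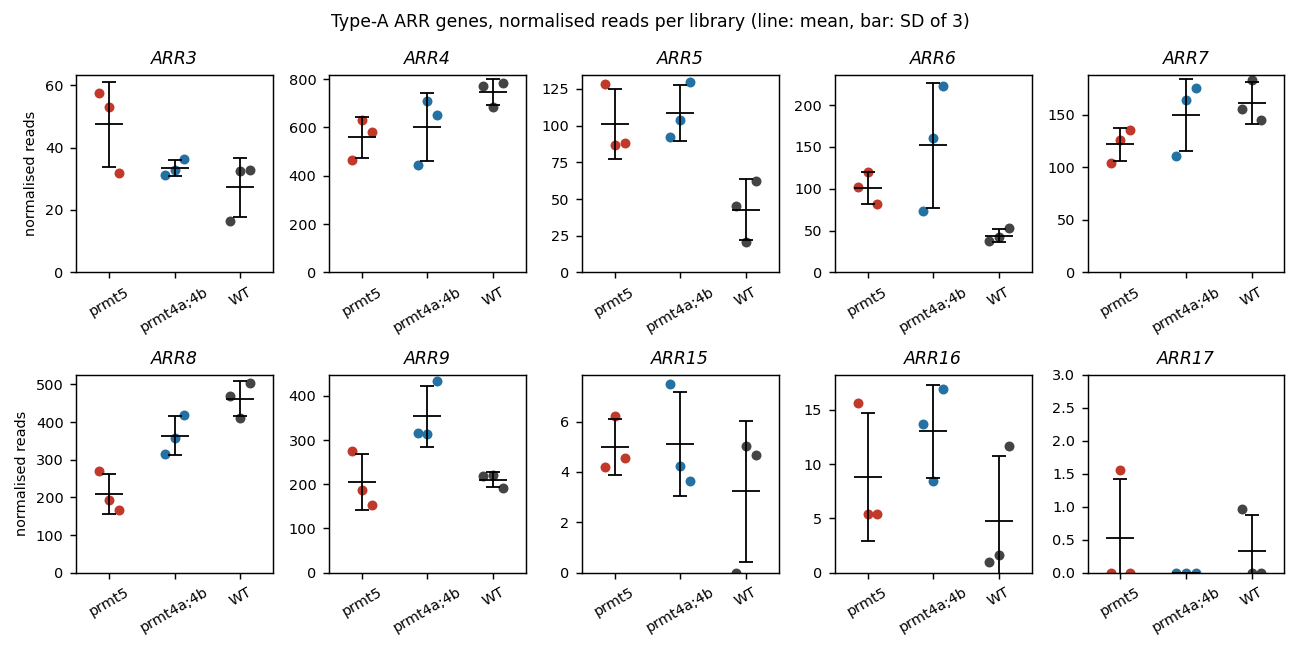
Normalised reads of the 10 type-A *ARR* genes in each library (points) of *prmt5*, *prmt4a;4b* and WT, with the mean (line) and SD of 3 libraries (bar), on a separate axis from 0 for each gene. The 6 mutant libraries lie above all WT libraries for *ARR5* and *ARR6*, and the *prmt5* libraries lie below the others for *ARR8*.

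3 members passed the test in *prmt5* against WT, *ARR5* and *ARR6* upward and *ARR8* downward, and 3 passed in *prmt4a;4b* against WT, all upward: *ARR5*, *ARR6* and *ARR9*. The test was edgeR's quasi-likelihood test, with Benjamini-Hochberg adjustment over every gene tested. A gene was tested when it reached 10 reads on average in at least 1 of the genotypes in the fit. A gene was called when its adjusted p was below 0.10 and its log2 change was larger than 0.58 in size. In *prmt5*, 2 of 7 tested members were called higher and 1 lower, against 11.9% and 14.2% of all 21078 genes tested (26.1% in both directions). In *prmt4a;4b*, 3 of 8 were called higher and 0 lower, against 13.8% and 12% of 20844 genes (25.8% in both directions). At an unadjusted p under 0.05, 1 member was lower there (*ARR8*), and the DESeq2 Wald test also called 3 members. The median log2 change was -0.09 over the 7 members and -0.01 over all genes in *prmt5*, and 0.52 over the 8 members and -0.00 over all genes in *prmt4a;4b*. *ARR16*, at 1.52 in *prmt4a;4b*, entered the test there only through that mutant's reads. It was not tested in *prmt5* against WT, so the medians cover different sets of members.

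*ARR5* (AT3G48100, chr3:17758427-17760874, minus strand) is a primary cytokinin response gene. It had 129, 86.6 and 88.1 normalised reads in *prmt5*, 92.3, 104 and 129 in *prmt4a;4b*, and 45.4, 20.9 and 62.1 in WT. All 6 mutant libraries were above the highest WT library. The log2 change was 1.22 ± 0.35 (SE) in *prmt5*, a 2.32-fold increase (adjusted p = 0.0223 by edgeR), and 1.36 ± 0.34 in *prmt4a;4b*, a 2.58-fold increase (adjusted p = 0.00962 by edgeR).

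*ARR6* (AT5G62920, chr5:25252386-25254212, minus strand) is the close relative of *ARR5*. It had 102, 120 and 81.7 normalised reads in *prmt5*, 73.6, 161 and 222 in *prmt4a;4b*, and 37.7, 41.9 and 52.7 in WT. Again no mutant library overlapped with WT, and the *prmt4a;4b* libraries spread widely, with replicate 1 the lowest and within the range of neither WT nor *prmt5*. The log2 change was 1.17 ± 0.26 in *prmt5*, a 2.25-fold increase (adjusted p = 0.00645 by edgeR), and 1.80 ± 0.35 in *prmt4a;4b*, a 3.47-fold increase (adjusted p = 0.00234 by edgeR). *ARR5* and *ARR6* together made up 16.2, 14.7 and 13.6% of the summed type-A reads in *prmt5* and 11.8, 14.2 and 16.9% in *prmt4a;4b*, against 4.84, 3.91 and 6.41% in WT. Libraries of this pair lay above all WT libraries in both mutants, as did those of 24.5% of all tested genes in *prmt5* and 23.7% in *prmt4a;4b*. No tested member had all *prmt4a;4b* libraries below WT, as 23.5% of all genes did.

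*ARR8* (AT2G41310, chr2:17221933-17224427, plus strand) is known to respond only weakly to cytokinin. It had 270, 193 and 167 normalised reads in *prmt5*, 314, 358 and 418 in *prmt4a;4b*, and 469, 412 and 503 in WT. The *prmt5* libraries were below all others, while the highest *prmt4a;4b* library overlapped with WT. In *prmt5* the log2 change was -1.18 ± 0.18, a 2.27-fold decrease (adjusted p = 0.00118 by edgeR). In *prmt4a;4b* it was -0.34 ± 0.15 (adjusted p = 0.0964 by edgeR), which did not reach the limit on size.

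*ARR9* (AT3G57040, chr3:21109614-21111432, plus strand), the partner of *ARR8*, had 276, 187 and 153 normalised reads in *prmt5*, 316, 313 and 433 in *prmt4a;4b*, and 218, 222 and 192 in WT. The *prmt4a;4b* libraries were above all others, and the *prmt5* libraries lay on both sides of WT. The log2 change was 0.75 ± 0.17 in *prmt4a;4b*, a 1.68-fold increase (adjusted p = 0.00537 by edgeR), and -0.09 ± 0.22 in *prmt5* (adjusted p = 0.782 by edgeR). The call in *prmt4a;4b* was lost on size without replicate 3 of that mutant, at a log2 change of 0.55, and with library totals in place of TMM factors, at 0.46.

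The ratio of *ARR8* to *ARR9*, each per length, differed in direction between the mutants and WT. It was 0.725, 0.764 and 0.813 in *prmt5*, 0.739, 0.850 and 0.717 in *prmt4a;4b*, and 1.60, 1.38 and 1.95 in WT. *ARR8* was thus below *ARR9* in all 6 mutant libraries and above it in all 3 WT libraries, with *ARR8* lower in *prmt5* and *ARR9* higher in *prmt4a;4b*. This ratio needs no scaling between libraries. It was noticed in the data and is given without a test.

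**Figure D2:**
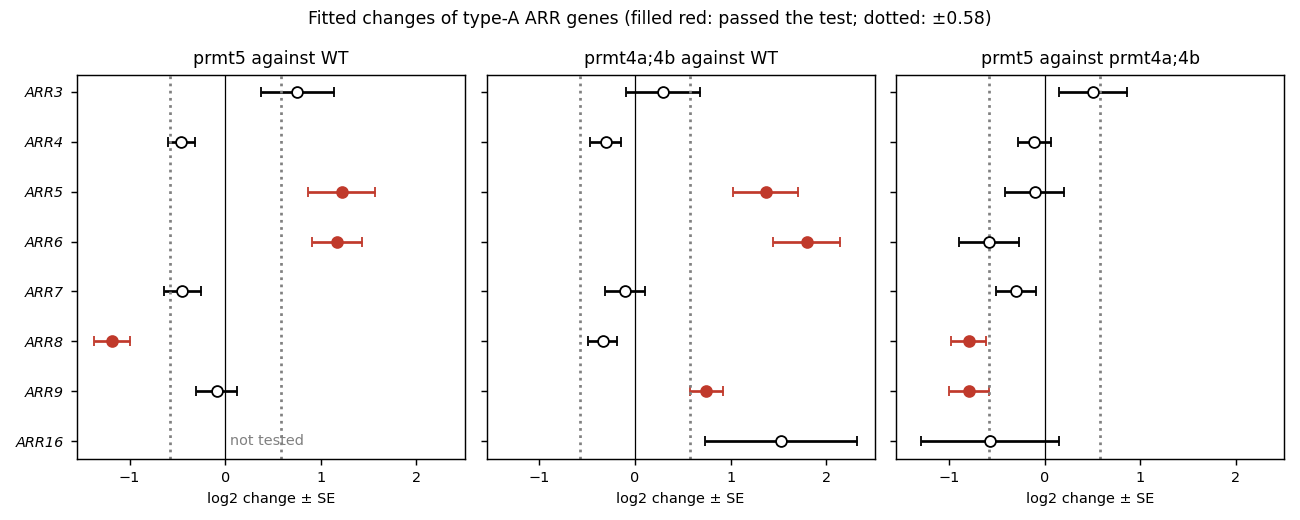
Fitted log2 change (x axis) with its SE (bar) for the 8 members tested in at least 1 comparison, in *prmt5* against WT, *prmt4a;4b* against WT and *prmt5* against *prmt4a;4b*. Filled red points passed the limits on adjusted p and size, with the size limit of 0.58 as dotted lines: *ARR5* and *ARR6* are to the right in both mutants, and *ARR8* and *ARR9* are to the left in the direct comparison.

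*ARR4* (AT1G10470, chr1:3442327-3443957, minus strand) encodes a protein that binds the light receptor phytochrome B. It had 467, 629 and 579 normalised reads in *prmt5*, 443, 711 and 653 in *prmt4a;4b*, and 771, 685 and 784 in WT. The *prmt5* libraries were all below WT, while those of *prmt4a;4b* overlapped with it. The log2 change of -0.46 ± 0.14 in *prmt5* had an adjusted p of 0.0296 (edgeR) but was under the limit on size, and in *prmt4a;4b* it was -0.31 ± 0.16 (adjusted p = 0.168 by edgeR). *ARR7* (AT1G19050, chr1:6577833-6579178, minus strand) is repressed by the stem cell regulator WUSCHEL in the shoot meristem. It had 104, 126 and 135 normalised reads in *prmt5*, 111, 164 and 175 in *prmt4a;4b*, and 155, 183 and 145 in WT. Its log2 change was -0.45 ± 0.19 in *prmt5* (adjusted p = 0.0983 by edgeR), under the limit on size although the libraries did not overlap, and -0.10 ± 0.21 in *prmt4a;4b* (adjusted p = 0.735 by edgeR). In *prmt5* the libraries of 3 members (*ARR4*, *ARR7* and *ARR8*) were all below WT, as were those of 22.4% of all genes tested.

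*ARR3* (AT1G59940, chr1:22065617-22066973, minus strand), the partner of *ARR4*, had 57.5, 53.0 and 31.8 normalised reads in *prmt5*, 31.2, 32.8 and 36.3 in *prmt4a;4b*, and 16.4, 32.6 and 32.8 in WT. Both mutants overlapped with WT. The log2 change was 0.75 ± 0.38 in *prmt5* (adjusted p = 0.153 by edgeR) and 0.29 ± 0.39 in *prmt4a;4b* (adjusted p = 0.589 by edgeR). Without *prmt5* replicate 3 the change in *prmt5* was 0.98 and passed the test (adjusted p = 0.0951 by edgeR).

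The other 3 members were close to the limit of detection: *ARR16* (AT2G40670, chr2:16970230-16971234, plus strand), *ARR15* (AT1G74890, chr1:28131590-28132710, minus strand) and *ARR17* (AT3G56380, chr3:20905480-20906368, plus strand). *ARR16* had 15, 7 and 6 raw reads in *prmt5*, 11, 8 and 14 in *prmt4a;4b*, and 1, 2 and 10 in WT, where replicate 3 stood apart from the others. It was tested only in comparisons with *prmt4a;4b*, and its log2 change there was 1.52 ± 0.80 against WT (adjusted p = 0.158 by edgeR), or 3.16 without WT replicate 3 (adjusted p = 0.0159 by edgeR). *ARR15*, which WUSCHEL also represses, had 4, 8 and 5 raw reads in *prmt5*, 6, 4 and 3 in *prmt4a;4b*, and 0, 6 and 4 in WT, and *ARR17* had 3 reads over all 9 libraries, 2 in *prmt5*, 0 in *prmt4a;4b* and 1 in WT. No difference in *ARR16* was detectable by the main test at this depth, and *ARR15* and *ARR17* were not tested.

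Summed over the family, normalised reads were 1425, 1408 and 1246 in *prmt5*, 1402, 1856 and 2088 in *prmt4a;4b*, and 1716, 1604 and 1789 in WT. The *prmt5* sums were below all WT sums, and those of *prmt4a;4b* lay on both sides of the WT sums. The position of *prmt4a;4b* depended on the scaling: by library totals alone, the sums were 42.7, 45.3 and 37.3 RPM in *prmt5*, 39.9, 59.8 and 58.1 RPM in *prmt4a;4b*, and 60.4, 60.2 and 61.0 RPM in WT, below all WT libraries in both mutants. The makeup, which needs no scaling between libraries, differed as well. *ARR4* and *ARR8* held 51.7, 58.4 and 59.9% of these reads in *prmt5* and 54.0, 57.6 and 51.3% in *prmt4a;4b*, against 72.3, 68.4 and 72.0% in WT.

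**Figure D3:**
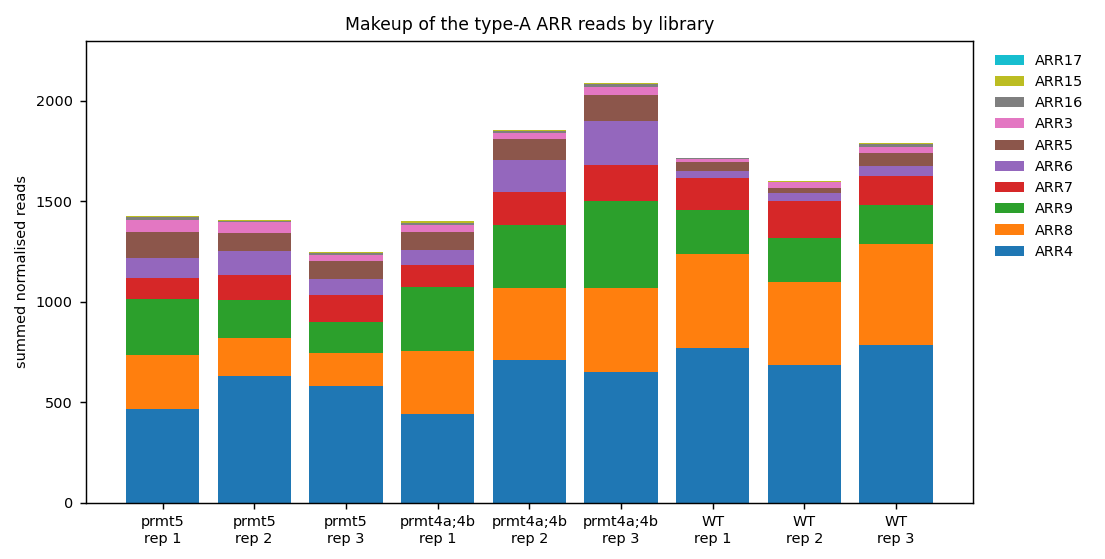
Summed normalised reads of the 10 type-A *ARR* genes in each of the 9 libraries, stacked by gene from *ARR4* at the bottom. The *ARR5* and *ARR6* segments are wider in the 6 mutant libraries than in WT, and the *ARR8* segment is narrowest in *prmt5*.

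The mutants were compared directly in a fit of all 9 libraries, so a gene could also enter this test through its WT reads. Of 8 members tested, 0 were called higher in *prmt5* than in *prmt4a;4b* and 2 were called lower, *ARR8* and *ARR9*, against 9.39% and 8.37% of 21193 genes (17.8% in both directions). No member was higher at an unadjusted p under 0.05 either, and the DESeq2 Wald test also called 2 members. The log2 difference was -0.80 ± 0.18 for *ARR8* (adjusted p = 0.00837 by edgeR) and -0.79 ± 0.21 for *ARR9* (adjusted p = 0.0167 by edgeR). For both genes all *prmt5* libraries were below all *prmt4a;4b* libraries, which held for 19.3% of all genes tested, and no member had all *prmt5* libraries above, as 18.2% of all genes did. Intervals of these log2 differences are normal approximations from the SE, and they run somewhat narrower than the edgeR test allows. The difference for *ARR5* was -0.11 with a 95% interval of -0.71 to 0.50, and that for *ARR4* was -0.11 with an interval of -0.44 to 0.23. *ARR6* gave -0.59 with an interval of -1.20 to 0.03 (adjusted p = 0.197 by edgeR), and -0.93 without *prmt4a;4b* replicate 1 (adjusted p = 0.0229 by edgeR). *ARR3*, *ARR7* and *ARR16* did not pass either, at log2 differences of 0.50, -0.30 and -0.58.

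Across the 9 libraries the members did not follow one pattern. With the log2 level of each gene centred on its mean, the closest pair was *ARR4* and *ARR7*, with a root mean square difference of 0.18, while *ARR5* and *ARR6* differed by 0.49, *ARR8* and *ARR9* by 0.53 and *ARR3* and *ARR4* by 0.64. Among 17347 genes that averaged 50 reads or more over the 9 libraries, the gene nearest to *ARR4* was *AT3G54380* (*SAC3C* in RefSeq), at 0.07, that nearest to *ARR8* was *AT2G41475*, at 0.15, and that nearest to *ARR9* was *AT5G40470*, at 0.11. These are descriptions over libraries that share the same depth and genotype differences.

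The other genes of the pathway were followed as a list of 55, of which 40 were tested. In *prmt5*, 7 were called higher and 1 lower, and in *prmt4a;4b* also 7 were called higher and 1 lower. These counts stand beside the 26.1% and 25.8% of all genes given above, and the median log2 change of the 40 genes was 0.05 in *prmt5* and -0.00 in *prmt4a;4b*. None of the 4 receptors and related kinases tested passed against WT in either mutant, although 2 had an unadjusted p under 0.05 in *prmt5* and 1 in *prmt4a;4b*, all downward. Among the type-B transcription factors, 2 of 6 tested were higher in each mutant, and *ARR14* was one of them in both.

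*ARR14* had 101, 98 and 96 raw reads in *prmt5*, 73, 87 and 95 in *prmt4a;4b*, and 31, 47 and 24 in WT. All mutant libraries were above WT, with log2 changes of 1.41 ± 0.27 in *prmt5* (adjusted p = 0.0034 by edgeR) and 1.60 ± 0.27 in *prmt4a;4b* (adjusted p = 0.00102 by edgeR). *ARR1*, a major activator of type-A genes, averaged 6044 ± 236 normalised reads in *prmt5* and 2882 ± 307 in WT (SD, n = 3 each), a 2.04-fold increase (adjusted p = 0.000317 by edgeR), and was also higher in *prmt5* than in *prmt4a;4b*. *ARR2* was higher in *prmt4a;4b* than in WT at a log2 change of 0.58 ± 0.14 (adjusted p = 0.00781 by edgeR), just past the limit on size.

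Among the phosphotransfer proteins, *AHP4* was 2.29-fold higher in *prmt5* than in WT and *AHP3* was 1.54-fold higher in *prmt4a;4b* than in WT. Of the cytokinin response factors, which are AP2-type transcription factors, *CRF4* was higher in *prmt5* (1.67-fold) and in *prmt4a;4b* (1.73-fold), *CRF3* in *prmt5* (1.77-fold) and *CRF5* in *prmt4a;4b* (1.59-fold). Of the isopentenyltransferases, which make the first step of cytokinin synthesis, *IPT5* was 1.77-fold higher in *prmt5* and *IPT3* was 1.56-fold higher in *prmt4a;4b*. The *LOG* genes, whose enzymes release the active base, showed *LOG8* higher (1.89-fold) and *LOG5* lower (1.79-fold) in *prmt5*. The cytokinin oxidases, which break the hormone down, gave calls against WT only in *prmt4a;4b*: *CKX4* was 2.12-fold higher, and *CKX3* was lower. *CKX3* had 2, 0 and 0 raw reads in *prmt4a;4b* against 22, 8 and 6 in WT. The ratio was 0.0666 with a 95% counting interval of 0.00776 to 0.259, which covers counting error only and not the spread between libraries.

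In the direct comparison, 7 of the 40 genes were higher in *prmt5* than in *prmt4a;4b* and 4 were lower, beside 17.8% of all genes called. The higher ones were *AHP4*, *ARR1*, *CRF6*, *IPT5*, *IPT7*, *LOG8* and *CKX3*, and the lower ones were the receptor gene *AHK2*, *AHP2*, *AHP3* and *CKX4*. Their log2 differences were 0.67 to 2.90 for the higher genes, and -0.75 to -0.62 for the lower genes. The largest, for *CKX3*, rested on 22 reads in *prmt5* and 2 in *prmt4a;4b*. That gene passed the filter only through its WT reads.

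**Figure D4:**
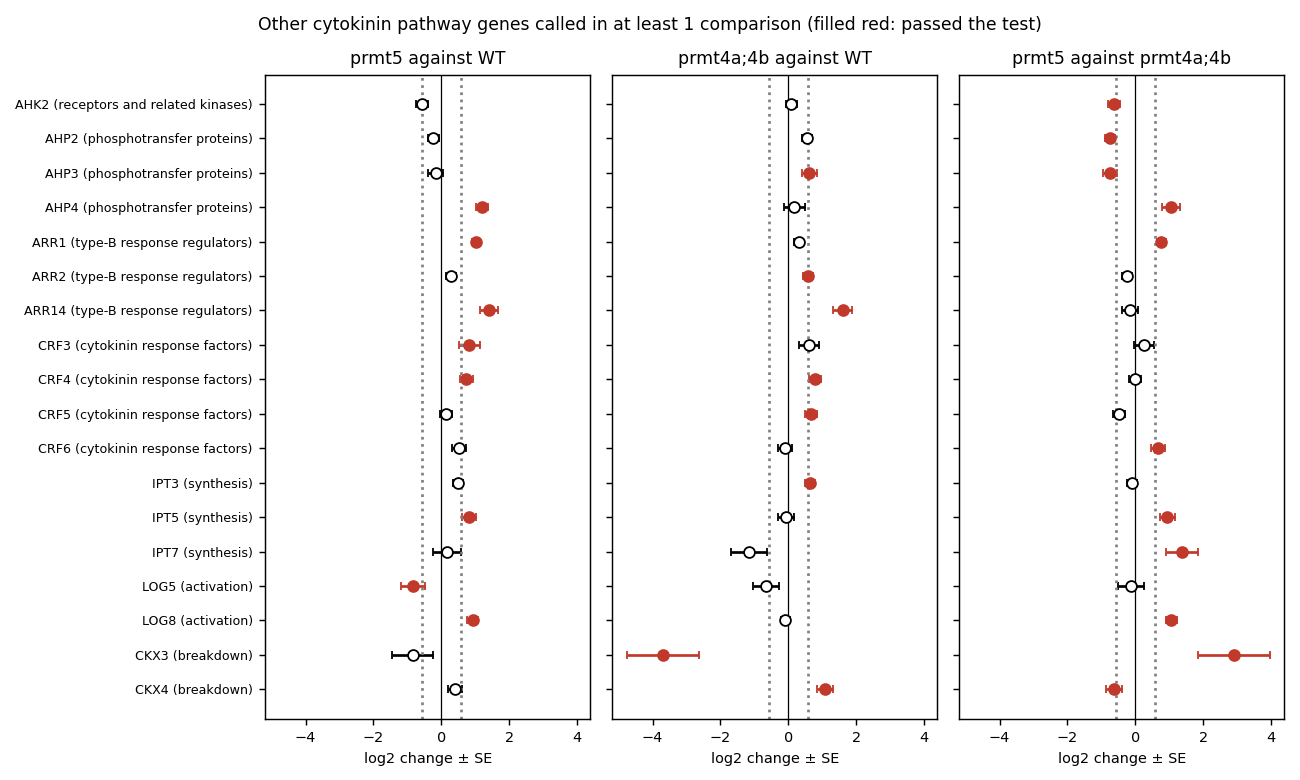
Fitted log2 change (x axis) with its SE (bar) of the 18 other cytokinin pathway genes called in at least 1 of the 3 comparisons, ordered by role, with filled red points for genes that passed the test. *ARR14* and *CRF4* are to the right in both mutants, and *ARR1*, *AHP4*, *IPT5* and *LOG8* are to the right in *prmt5* against WT and in *prmt5* against *prmt4a;4b*.

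Markers of single tissues were followed as 5 lists, whose calls stand beside the 11.9% of all genes called higher and 14.2% called lower in *prmt5*, and the 13.8% and 12% in *prmt4a;4b*. Of the root markers, 3 of 9 tested were called higher in *prmt5* and 1 of 8 in *prmt4a;4b*, with 0 lower in either. *WOX5*, called higher in *prmt5* at 2.22, passed the filter against WT only through its *prmt5* reads. It was not tested in *prmt4a;4b* against WT, although its libraries there were also above WT. With sets that differ by this gene, the log2 change of the root markers was positive for 8 of 9 in *prmt5* (median 0.50) and for 3 of 8 in *prmt4a;4b* (median -0.16). The summed root level ran against this, with 46823 to 53358 normalised reads in *prmt5*, 43829 to 62557 in *prmt4a;4b* and 56360 to 61849 in WT, and most of it was *PYK10*, a root glucosidase gene, with means of 47369 in *prmt5*, 49642 in *prmt4a;4b* and 57909 in WT.

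The 4 shoot meristem markers, of which 2 were tested and 0 were called against WT (0 also at an unadjusted p under 0.05 by edgeR), summed to 807 to 896 normalised reads in *prmt5*, 484 to 765 in *prmt4a;4b* and 566 to 842 in WT, with no read of *CLV3* in *prmt5* or WT and no read of *WUS* in *prmt4a;4b*. Of the green leaf list, 1 of 4 was called higher in *prmt5* (*LHCA2*) and 2 of 4 in *prmt4a;4b* (*LHCB1.3* and *LHCA2*). In *prmt4a;4b* the other 2 had negative changes that were not called, *RBCS1A* at -0.40 with all its libraries below WT and *RCA* at -0.26. The sums of this list were above WT in all mutant libraries, and *LHCB1.3* held the largest mean in each genotype.

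Of the seed markers, 1 of 4 tested was called higher in *prmt5*, *SESA1* at a log2 change of 5.72 with libraries that overlapped with WT. *SESA1* passed the filter there only through its *prmt5* reads, and it was not tested in *prmt4a;4b* against WT. In *prmt4a;4b* 3 of 3 tested were called lower, *CRA1* at -1.30, *CRC* at -2.59 and *OLEO1* at -0.85. Their sums were 986 to 12971 normalised reads in *prmt5*, 1829 to 2343 in *prmt4a;4b* and 3791 to 6260 in WT. Of the 5 floral markers 2 were tested, and 1 was called, *SEP3*, lower in *prmt4a;4b* at -1.91. The floral sums were 95.1 to 169 normalised reads in *prmt5*, 26.2 to 87.1 in *prmt4a;4b* and 142 to 184 in WT. *AP1* and *AP3* had no read in *prmt4a;4b* or WT, and *AG* had none in WT. The part of these lists in the type-A results was not tested.

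At the level of splicing, the family held few reads. The introns were 72 to 750 bases long and had 518 reads in all over the 9 libraries, and 9 of the 41 had none. Intron reads per 100 gene reads, summed over the family, were 4.77, 5.43 and 4.74 in *prmt5*, 3.47, 3.25 and 4.75 in *prmt4a;4b*, and 1.74, 1.83 and 3.01 in WT. Both mutants were above all WT libraries. Over all genes the same measure was 1.98 to 2.10 in *prmt5*, 1.56 to 1.76 in *prmt4a;4b* and 1.63 to 1.70 in WT. The sum over the family depends both on its makeup and on the values of single genes, and the part of each was not tested. *ARR5* and *ARR6* took a larger share of the reads in the mutants. They had 10.3 and 7.89 intron reads per 100 gene reads in *prmt5*, 12.5 and 1.27 in *prmt4a;4b*, and 12.8 and 11.9 in WT.

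Within single genes, *ARR4* had 2.24, 2.35 and 2.19 intron reads per 100 gene reads in *prmt5*, 1.97, 1.64 and 3.89 in *prmt4a;4b*, and 0.876, 0.489 and 0.448 in WT, without overlap between mutants and WT. *ARR7* had 4.00, 4.94 and 5.37 in *prmt5*, 0, 1.94 and 0.690 in *prmt4a;4b*, and 0.621, 0 and 2.42 in WT, so that all *prmt5* libraries stood above WT while *prmt4a;4b* overlapped with it. *ARR9* had 7.20, 11.7 and 11.9 in *prmt5*, 6.32, 4.73 and 7.54 in *prmt4a;4b*, and 5.75, 4.91 and 6.71 in WT, where all *prmt5* libraries were above WT and those of *prmt4a;4b* lay on both sides of it. *ARR8* had 3.88, 0.810 and 4.35 in *prmt5*, 3.17, 3.54 and 4.62 in *prmt4a;4b*, and 0.206, 0.813 and 2.79 in WT, so that there all *prmt4a;4b* libraries stood above WT while *prmt5* overlapped with it. The libraries of *ARR3*, *ARR5* and *ARR6* overlapped with WT in both mutants. The share of all genes without overlap on this measure was not computed. Summed over all genes, the *prmt5* libraries also stood above WT, and those of *prmt4a;4b* lay on both sides of it. The single-gene values rest on few reads, at most 28 intron reads in a library (*ARR9* in *prmt5*).

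Single introns were tested like genes, where a genotype averaged 5 reads or more. A call needed an adjusted p below 0.15, a log2 change larger than 0.58 in size and a splicing index (read density of the intron over that of its gene) whose log2 ratio passed 0.58 in the same direction. In *prmt5*, 6 member introns were tested and 1 was called, higher, beside 28.8% of 20967 introns called in both directions and 23.8% called higher. In *prmt4a;4b*, 4 were tested and 0 were called, beside 17.3% of 16090 introns, and in the direct comparison 6 were tested and 0 were called, beside 14.8% of 21912 introns. Of the introns tested in these last 2 comparisons, 0 had an unadjusted p under 0.05, and 0 were called by the edgeR exact test. The intron called in *prmt5* reached the filter against WT only through its *prmt5* reads. It was not among the 4 tested in *prmt4a;4b*, so these counts do not compare the mutants for it. *ARR5* was under the read density limit in WT, so its tested intron, intron 4 of 4 at chr3:17759287-17760036 (the longest of the family), could not be called against WT.

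The called intron was intron 3 of 4 in *ARR4*, at chr1:3443170-3443251 on the minus strand. It is printed whole because it carries the only splicing call of the family, with its first and last 2 bases in capitals.
*ARR4* intron 3: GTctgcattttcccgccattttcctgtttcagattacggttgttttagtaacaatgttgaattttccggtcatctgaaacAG

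It had 6, 11 and 7 reads in *prmt5*, 2, 6 and 3 in *prmt4a;4b*, and 3, 0 and 0 in WT. The *prmt5* libraries were above all WT libraries, and WT had reads in 1 library only. The log2 change in *prmt5* was 2.73 ± 0.98 (adjusted p = 0.0379 by edgeR), and 5.96 without WT replicate 1. The 24 reads in *prmt5* and 3 in WT gave a ratio of 7.39 with a 95% counting interval of 2.24 to 38.3, which covers counting error only. The log2 ratio of the splicing index was 3.08. In *prmt5* against *prmt4a;4b* the difference was 0.74 ± 0.80 (adjusted p = 0.610 by edgeR).

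The donor sites of the 4 *ARR4* introns are printed with the last 3 exon bases in lower case and the first 6 intron bases in capitals.
*ARR4* intron 1 donor: aagGTTCGT
*ARR4* intron 2 donor: gatGTAAGT
*ARR4* intron 3 donor: aagGTCTGC
*ARR4* intron 4 donor: cagGTGTGA

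The other *ARR4* introns had 0 to 3, 0 to 1 and 4 to 7 reads per library in *prmt5* and 0 to 2, 0 and 2 to 4 in WT for introns 1, 2 and 4. All 41 member introns began with GT and ended with AG, and 29 had AG as the last 2 exon bases before the donor, as introns 1, 3 and 4 of *ARR4* did. Intron 4 of *ARR8* had 1, 0 and 1 reads in *prmt5*, 0, 3 and 9 in *prmt4a;4b* and 0 in all WT libraries. It was not tested by the main rule, and it was called higher in *prmt4a;4b* without its replicate 1. The single annotated alternative splicing bin, a 3-base alternative acceptor segment of *ARR16*, had 2 reads, both in WT replicate 3, and was not tested.

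**Figure D5:**
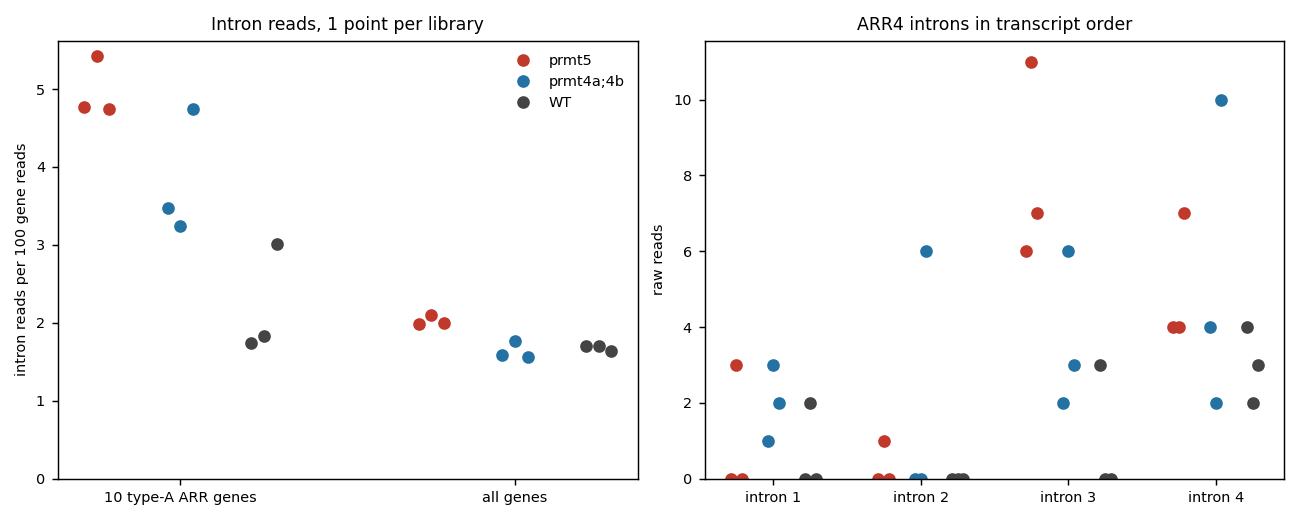
Left, intron reads per 100 gene reads in each library, summed over the 10 type-A *ARR* genes and over all genes, for *prmt5*, *prmt4a;4b* and WT. Right, raw reads in the 4 *ARR4* introns in transcript order; in intron 3 the *prmt5* libraries had 6, 11 and 7 reads and the WT libraries 3, 0 and 0.

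The longest run of identical bases between the exons of any pair of members was 41 bases, for *ARR3* with *ARR4* and for *ARR8* with *ARR9*, shorter than the reads. No other gene of RefSeq overlapped with the counted span of a member. The longer RefSeq models of *ARR6*, *ARR8* and *ARR9* overlap outside that span with an antisense gene, *AT5G62910*, *AT2G09250* and *AT3G08825* in turn, and the library kit does not mark strand.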

How the data were processed

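RNA-seq reads of 9 libraries were aligned by the authors to TAIR10 with TopHat2 2.0.9, and the deposited tables hold raw whole-number read counts for genes, for bins of annotated alternative splicing and for introns. The WT columns of the tables of both mutants hold identical values and were used once. Columns of the authors' own comparisons (edgeR 3.4.2 in R 3.0.2) were not used. Depth was 25029646 to 39904677 gene reads, so a gene with 3 reads is at the floor of counting. The gene test was the quasi-likelihood test of edgeR 4.0.16 under R 4.3.3 with TMM factors, each mutant against WT in 6 libraries and the mutants against each other in 9, after a filter at a mean of 10 reads in a genotype, with calls at an adjusted p below 0.10 and a log2 change over 0.58 in size. Bins and introns used gene library sizes, a mean of 5 reads, an adjusted p below 0.15, a gene density over 0.05 reads per base in both genotypes and a splicing index over 0.05 in one. Introns of the files were checked on the reference: 98.7% of 120269 had GT-AG ends. Scripts were tested on simulated data. Alternatives were DESeq2 1.42.0, other scalings, no filter, a stricter limit, the replicate number as a block and leaving out each library, and, chosen after seeing the data, a fit of 7 libraries. The text names all 10 members, the pathway genes called in at least 1 comparison, the 3 *PRMT* genes and the gene nearest in pattern to each of the 3 members with the most reads. It also names *ARR8* intron 4, chosen after its values were seen. Members and lists were chosen with earlier results of these data known. Python 3.11.15, pandas 2.3.3, scipy 1.17.1 and matplotlib 3.10.9 were used.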

Additional observations from a re-analysis of the deposited data

Results flagged for a closer look

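The changes of *ARR8* and *ARR9* against WT differed between the mutants by a direct test in the fit of 9 libraries. The log2 change in *prmt5* minus that in *prmt4a;4b* was -0.80 for *ARR8* and -0.79 for *ARR9*, and both passed the adjusted limits there (adjusted p = 0.00837 and 0.0167 by edgeR's quasi-likelihood test). All 3 *prmt5* libraries were below all 3 *prmt4a;4b* libraries for each gene. Over 17 alternative settings the difference ranged from -1.03 to -0.68 for *ARR8* and from -1.07 to -0.63 for *ARR9*, and it passed in each of them.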

How the results depend on the processing

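*ARR5* and *ARR6* stayed higher in both mutants, and *ARR8* lower in *prmt5*, past the limits under all 14 alternatives run for each. Without TMM factors the median of all genes moved to -0.18 in *prmt5* and -0.27 in *prmt4a;4b*, with 1444 genes called higher and 4583 lower in *prmt5* and 1289 higher and 5308 lower in *prmt4a;4b* (2505 and 2996, and 2878 and 2494, with them). The type-A calls then numbered 5 in *prmt5*, as *ARR4* (-0.63) and *ARR7* (-0.62) passed. In *prmt4a;4b*, *ARR8* passed (-0.61) and *ARR9* did not (0.46). Leaving out 1 library gave 3 to 4 type-A calls in *prmt5*, 2 to 4 in *prmt4a;4b* and 2 to 3 in the direct comparison. Calls of introns ranged from 0 to 1 in *prmt4a;4b* and from 0 to 1 in the direct comparison when 1 library was left out, and were 1 in *prmt4a;4b* with no filter on low counts. Each of these was *ARR8* intron 4. Without *prmt5* replicate 1 and *prmt4a;4b* replicate 3 together, an alternative chosen after seeing the data, the type-A calls were 3, 2 and 2, with *ARR9* at 0.55 in *prmt4a;4b* not called. The deviations of same-numbered libraries had correlations of -0.12 to 0.12 over the 3 comparisons, and those of differently numbered libraries -0.07 to 0.14. With 3 libraries per genotype, these values cannot settle whether the numbers pair the samples. With the replicate number as a block the type-A calls were 3 in *prmt5*, 4 in *prmt4a;4b*, where *ARR16* passed at 1.72, and 2 in the direct comparison. No direction of a called value reversed. Depth limited *ARR15*, *ARR16*, *ARR17* and most introns.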
